A study of Mus musculus with 12 samples.

Results

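The genes described here are 40 mouse genes of the stress response of the endoplasmic reticulum (ER) and of the amino acid program run by the transcription factor ATF4. They were taken by symbol from count tables of 31017 genes. All 40 were found, and all 40 passed the filter on low counts, since the lowest count of any of them in any library was 32. By role they were 15 ER chaperones and folding enzymes, 2 genes of ER-associated degradation, 5 sensors and transcription factors, and 18 ATF4 targets. The ATF4 targets comprised 4 stress effectors, 6 enzymes that make amino acids or one-carbon units, 4 amino acid transporters and 4 tRNA synthetases.

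Polyadenylated RNA was sequenced from 4T1, a mouse mammary carcinoma line, grown on plastic (2D) or within collagen I gels (3D). The control group was made of pools of clones nucleofected with control sgRNA, and clone 1 and clone 2 were each a clone selected after nucleofection with Cas9 and sgRNA against Etv4, which encodes an ETS-family transcription factor. Each of these 3 cell populations had 2 libraries in 2D and 2 in 3D, 12 libraries in all, and the labels do not say whether replicates were separate cultures, and if they were not, the p-values reflect only technical spread. A knockout clone differed from the control both in its Etv4 guide and in being a clone set against a pool, and these cannot be told apart. RNA of the 3D cells was taken after a collagenase digest of the gel, and these libraries were counted in a table of their own, so culture format, digestion and table cannot be told apart either. Collagen was used at either of a pair of concentrations, and which gel had which is not given.

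Secreted and membrane proteins fold in the ER with the help of chaperones such as BiP (Hspa5) and GRP94 (Hsp90b1), of the lectins calreticulin (Calr) and calnexin (Canx), and of protein disulfide isomerases. When unfolded protein builds up, the sensors IRE1 (encoded by Ern1), ATF6 and PERK respond: IRE1 splices the mRNA of Xbp1, ATF6 is cleaved to release a transcription factor, and PERK phosphorylates eIF2, which favours translation of ATF4. Other eIF2 kinases raise ATF4 when amino acids are short, and its targets make amino acids, carry them into the cell and charge them onto tRNA. Counts per gene show neither the splicing of Xbp1, nor the cleavage of ATF6, nor the translation of ATF4.

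Some promoters of each arm carry different short elements, shown here because they describe chaperones and ATF4 targets by sequence rather than by level. Promoters were RefSeq windows of 300 bases (build GRCm38.p6), from 250 bases before to 50 bases after the start site, and 34 of the 40 genes matched, with 36 promoters. The ER stress response element ERSE-I, CCAAT and CCACG with 9 bases between them, was searched on both strands. It occurred in 7 of 13 chaperone promoters (53.8%), in 0 of 17 ATF4-target promoters and in 0.119% of all 32851 promoters. The related element ERSE-II, ATTGG and CCACG with 1 base between them, occurred in 2 of the 36 promoters, those of Dnajb11 and Herpud1, and in 0.0365% of all. Capitals mark the element, read 5′ to 3′ on the strand of the gene, so that a match on the other strand appears as its reverse complement.
Hspa5, chr2:34772020-34772048, plus strand: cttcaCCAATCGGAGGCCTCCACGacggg
Hsp90b1, chr10:86705622-86705672, minus strand: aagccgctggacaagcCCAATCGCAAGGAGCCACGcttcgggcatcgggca
Hsp90b1, chr10:86705517-86705567, minus strand: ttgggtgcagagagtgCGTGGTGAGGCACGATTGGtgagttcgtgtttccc
Calr, chr8:84847059-84847109, minus strand: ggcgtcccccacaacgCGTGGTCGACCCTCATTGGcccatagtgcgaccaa
Canx, chr11:50325784-50325834, minus strand: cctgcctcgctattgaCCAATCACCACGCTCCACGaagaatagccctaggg
Pdia6, chr12:17266475-17266525, plus strand: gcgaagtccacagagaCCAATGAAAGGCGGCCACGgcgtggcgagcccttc
Dnajc3, chr14:118937811-118937861, plus strand: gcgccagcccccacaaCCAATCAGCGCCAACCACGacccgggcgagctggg
Creld2, chr15:88819504-88819554, plus strand: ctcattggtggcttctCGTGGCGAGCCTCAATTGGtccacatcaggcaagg
Herpud1, chr8:94386361-94386403, plus strand: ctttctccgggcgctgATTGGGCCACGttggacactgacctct

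The element bound by ATF4 with a C/EBP partner, TGATGNAA, was searched in the same way. It occurred in 6 of 17 ATF4-target promoters (35.3%), those of Trib3, Chac1, Asns, Slc7a11, Aars and Gars, in 0 of 13 chaperone promoters and in 3.97% of all promoters. Among the 34 genes with a window, Herpud1 alone had both an ATF4 element and an ER stress element in its window. The sequences below are windows of 5 genes with this element before the start site, with the element in capitals. The matches of Trib3 and Gars, and a further match of Aars after the start site, are not shown. No match of one motif overlapped a match of another.
Chac1, chr2:119351033-119351072, plus strand: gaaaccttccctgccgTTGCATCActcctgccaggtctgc
Slc7a11, chr3:50443637-50443695, minus strand: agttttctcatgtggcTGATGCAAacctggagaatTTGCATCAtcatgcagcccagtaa
Asns, chr6:7693220-7693237, minus strand: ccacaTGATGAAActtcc
Aars, chr8:111033725-111033742, plus strand: gagcaTTGCATCAgccga
Herpud1, chr8:94386301-94386340, plus strand: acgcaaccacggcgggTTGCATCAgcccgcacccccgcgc

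The element TGACGTGG, associated with XBP1 and ATF6, was found in 0 of the 36 promoters and in 0.676% of all. The ETS core CCGGAAG was found in 9 of the 36 promoters (25%), those of Pdia6, P4hb, Dnajb11, Ern1, Ddit3, Psat1, Shmt2, Slc3a2 and Gars, and in 8.86% of all. A match describes letters in the window and says nothing of binding in these cells.

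The 2D libraries held 12.28 to 18.7 M counts and the 3D libraries 26.53 to 33.21 M. Etv4 itself was at 78.1 and 76.0 counts per M (CPM) in the control libraries of 2D, against 49.8 and 49.2 for clone 1 and 49.25 and 46.0 for clone 2. In 3D the same groups had 94.7 and 99.4, 69.9 and 69.1, and 86.6 and 91.5 CPM. Etv4 lies on chromosome 11, where the median log2 change of clone 1 was -0.38 in 2D and -0.43 in 3D. That of clone 2 was -0.09 in 2D and 0.02 in 3D. Etv4 was not tested against these medians. Small insertions or deletions can leave a whole-gene count unchanged, so a count of Etv4 is a weak check of the edit. Summed epithelial markers (Epcam, Cdh1, Krt8, Krt18) ranged from 2204 to 3998 CPM. Leukocyte markers summed to 1.68 to 11.1 CPM, fibroblast markers to 3.56 to 23.3 CPM, which was nearly all Pdgfra, and endothelial markers to 3.39 to 14.9 CPM, with Itgam, Pdgfrb and Lum at 0 in all 12 libraries. In bulk RNA, fewer cells with a transcript and less transcript per cell cannot be told apart. The 2 predicted genes Gm26917 and Gm42418 took 1.86 to 2.15% of the counts in 2D and 12.4 to 16.9% in 3D, and every comparison was also run without them.

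The members spanned a wide range of levels. Per kilobase of exon, control cells in 2D had 361 CPM of Hspa5, 298 of Calr, 289 of P4hb, the beta subunit of collagen prolyl hydroxylase and itself a disulfide isomerase, and 231 of Phgdh, the entry enzyme of serine synthesis. At the low end on the same scale, in the same cells, stood Slc7a11, the cystine transporter, at 0.493 CPM per kilobase, Sesn2, a leucine-sensing inhibitor of mTORC1, at 1.12, Dnajb9, a J-domain partner of BiP, at 1.91, Trib3, a pseudokinase, at 1.96, Ddit3, which encodes the factor CHOP, at 2.26, and Chac1, an enzyme that degrades glutathione, at 2.35. Hspa5, Calr and P4hb were thus abundant in control cells in 2D, and Sesn2, Trib3, Ddit3 and Chac1 were scarce. Level did not follow role throughout, since the chaperone Dnajb9 also stood at the low end. In 3D control cells Hspa5 was at 202 CPM per kilobase, Calr at 149 and Phgdh at 59.7, against 10.7 for Dnajb9 and 4.07 for Chac1.

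Members that are not shown library by library in every group are given by their lowest and highest group mean over the 6 groups, as mean ± SD of 2 libraries. Hsp90b1 ran from 572 ± 15.5 CPM in clone 2 in 3D to 776 ± 3.03 CPM in clone 1 in 3D. Canx ran from 677 ± 24.4 CPM in clone 1 in 3D to 926 ± 29.5 CPM in clone 2 in 2D. P4hb ran from 322 ± 7.03 CPM in clone 1 in 3D to 933 ± 65.8 CPM in clone 2 in 2D. The last 2 are the abundant chaperones of chromosome 11. Pdia4, a disulfide isomerase, ran from 118 ± 2.44 CPM in control in 3D to 176 ± 2.89 CPM in clone 2 in 2D. Pdia6, another disulfide isomerase, ran from 150 ± 4.22 CPM in control in 3D to 354 ± 0.566 CPM in clone 2 in 2D. Hyou1 ran from 131 ± 0.995 CPM in clone 2 in 3D to 252 ± 6.27 CPM in control in 2D. All 3 were highest on plastic. Dnajc3 ran from 75.8 ± 0.809 CPM in control in 3D to 151 ± 9.5 CPM in clone 2 in 2D. Manf ran from 62.2 ± 2.21 CPM in clone 2 in 3D to 126 ± 0.511 CPM in control in 2D. Edem1 ran from 78.5 ± 4.1 CPM in control in 3D to 103 ± 7.75 CPM in control in 2D. Among the enzymes the 2D groups likewise stood above the 3D groups. Psph, the phosphatase that completes serine synthesis, ran from 26.8 ± 0.877 CPM in clone 2 in 3D to 56.1 ± 0.881 CPM in control in 2D. Phgdh ran from 116 ± 4.94 CPM in clone 2 in 3D to 650 ± 0.919 CPM in clone 2 in 2D. Shmt2 ran from 106 ± 0.464 CPM in clone 2 in 3D to 277 ± 8.87 CPM in control in 2D. In each of these 3 enzymes clone 2 in 3D was lowest. Slc7a5 ran from 138 ± 0.335 CPM in clone 2 in 3D to 196 ± 7.62 CPM in clone 1 in 3D. Slc3a2 ran from 96.6 ± 3.65 CPM in clone 1 in 2D to 143 ± 7.58 CPM in clone 1 in 3D. Aars ran from 158 ± 2.59 CPM in clone 2 in 3D to 326 ± 17.9 CPM in clone 2 in 2D. Slc7a5 and Slc3a2 were both highest in clone 1 in 3D. Nars ran from 102 ± 4.31 CPM in clone 2 in 3D to 242 ± 16.8 CPM in clone 2 in 2D. Gars ran from 132 ± 2.75 CPM in clone 2 in 3D to 347 ± 3.27 CPM in clone 2 in 2D. Sesn2 ran from 3.56 ± 1.02 CPM in clone 2 in 2D to 9.04 ± 1.29 CPM in control in 3D. Both synthetases were lowest in clone 2 in 3D, and Sesn2 was lowest in 2D.

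In 3D gels clone 1 had higher RNA of most of these genes than control, among them most chaperones and most ATF4 targets. BiP and calreticulin stood at 158% and 165% of control and Chac1 at 256%. Of the 40 genes 25 were higher and 6 lower at an adjusted p of 0.05 or less, where 45% of all 13763 genes tested were called, 22% higher and 23% lower. The median log2 change of the 40 genes was 0.22, and that of all genes was 0.00. The count of 31 called genes fell to 18 without the first control library in 3D, to 20 without the second, and to 17 without the first clone 1 library in 3D.

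Among the chaperones 11 of 15 were higher in clone 1 in 3D and 2 were lower, with a median log2 change of 0.28. Hspa5 (chr2:34771970-34777547, mm10) was at 843 and 869 CPM in both control libraries and at 1303 and 1398 in clone 1, a log2 change of 0.66 ± 0.05 (SE, adjusted p = 2.7e-11). Calr (chr8:84841850-84846934) was at 422 and 435 CPM against 692 and 720, a log2 change of 0.72 ± 0.05 (adjusted p = 1.3e-12). In both genes each clone 1 library lay well above each control library. Dnajb9 was at 28.3 and 26.4 CPM in control cells and 42.8 and 43.5 in clone 1 (log2 change 0.66 ± 0.09, adjusted p = 1.3e-06). Pdia3, the disulfide isomerase that works with calreticulin and calnexin, was at 366 and 375 CPM against 515 and 538 (log2 change 0.51 ± 0.07, adjusted p = 1.1e-06). These 4 calls held under every alternative. Hsp90b1 at 0.38 ± 0.05, Dnajc3, a BiP cochaperone that also restrains eIF2 kinases, at 0.39 ± 0.06, and Manf, a secreted ER stress protein, at 0.24 ± 0.06 were higher on the log2 scale too, under every alternative.

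Canx and P4hb were the 2 chaperones that were lower in clone 1 in 3D, at log2 changes of -0.18 ± 0.05 (adjusted p = 0.00501) and -0.21 ± 0.05 (adjusted p = 0.00231). Both lie on chromosome 11, as do Xbp1 and Ern1, and all 4 were lower in clone 1 in both formats. Over the 1124 genes tested there the median log2 change of clone 1 in 3D was -0.43. With the median of each chromosome subtracted, Canx was at 0.25 and P4hb at 0.23, so that their direction reversed. Canx was no longer called without the first clone 1 library in 3D (-0.16, adjusted p = 0.0731), nor P4hb without the second control library in 3D (-0.16, adjusted p = 0.0729). Pdia6 and Dnajb9 lie on chromosome 12, where the median over 484 genes was 0.23, and the log2 change of Dnajb9 went to 0.43 and that of Pdia6 from 0.28 to 0.06 (adjusted p = 0.466) with the median subtracted. Under that setting 22 of the 40 genes were higher and 1 lower.

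Of the ATF4 targets 12 of 18 were higher in clone 1 in 3D and 2 were lower, with a median log2 change of 0.19. Chac1 (chr2:119351229-119354381) was at 6.31 and 7.02 CPM in control cells and at 17.3 and 16.8 in clone 1, a log2 change of 1.35 ± 0.14 (adjusted p = 8.3e-09) that was the largest of the 40 genes. Its promoter window, shown above, holds an ATF4 element. Cars, the cysteinyl-tRNA synthetase, was at 77.1 and 76.5 CPM against 101 and 99.7 (log2 change 0.38 ± 0.07, adjusted p = 2.9e-05), and Slc7a5, the leucine transporter, was higher by a log2 change of 0.24 ± 0.05 (adjusted p = 4.7e-04). The calls of Chac1, Cars and Slc7a5 held under every alternative. Slc7a1, the arginine and lysine transporter on chromosome 5, was at 194 and 195 CPM against 247 and 255 (log2 change 0.37 ± 0.06, adjusted p = 1.7e-05), and at 0.14 (adjusted p = 0.0826) with chromosome medians subtracted. The 4 serine and asparagine enzymes Asns, Psat1, Phgdh and Psph were higher by small log2 changes of 0.15 to 0.23. Each of these 4 calls was lost without the first control library in 3D, with adjusted p from 0.0576 to 0.41, and without the first clone 1 library in 3D, with adjusted p from 0.0528 to 0.3. Those of Psat1 and Psph were also lost without the second control library in 3D (0.11 and 0.19, adjusted p = 0.194 and 0.166) and with chromosome medians subtracted (0.01 and 0.00), and those of Psat1 and Phgdh without the second clone 2 library in 3D (0.13 in each, adjusted p = 0.0503 and 0.0738).

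Some stress effectors moved against each other in the same clone. Trib3 was at 3.87 and 4.34 CPM in control cells and 5.89 and 6.06 in clone 1 in 3D (log2 change 0.54 ± 0.20, adjusted p = 0.0278). Sesn2 was at 8.13 and 9.96 CPM against 6.30 and 6.76 (log2 change -0.47 ± 0.16, adjusted p = 0.0183). Neither call held under every alternative. The call of Trib3 was lost without either control, either clone 1 or the second clone 2 library in 3D (0.45 to 0.62). It was also lost by DESeq2 (adjusted p = 0.0734) and with chromosome medians subtracted (0.41, adjusted p = 0.112). That of Sesn2 was lost without the second control library or either clone 1 library in 3D (-0.32 to -0.49, adjusted p = 0.0874 to 0.26), by DESeq2 (adjusted p = 0.097) and with chromosome medians subtracted (-0.35, adjusted p = 0.0985). Ppp1r15a, which directs a phosphatase to eIF2, was at 42.1 and 43.5 CPM against 50.7 and 49.96, with a log2 change of 0.24 ± 0.09 (adjusted p = 0.0256) that was lost without either control, either clone 1 or the second clone 2 library in 3D (0.20 to 0.28, adjusted p = 0.0531 to 0.195) or with chromosome medians subtracted (0.09, adjusted p = 0.479).

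Of the 5 sensors and transcription factors 1 was higher and 2 were lower in clone 1 in 3D. Atf4 was at 220 and 222 CPM in control cells and 235 and 226 in clone 1, a log2 change of 0.06 ± 0.05 (adjusted p = 0.388). Ddit3 was at 9.23 and 8.42 against 9.49 and 9.18 CPM (0.08 ± 0.15, adjusted p = 0.706). Ern1 (chr11:106394650-106487852) was at 64.9 and 62.9 CPM in control cells and 36.0 and 34.4 in clone 1, a log2 change of -0.86 ± 0.08 (adjusted p = 1.8e-09), and of -0.43 with chromosome medians subtracted, still called. Xbp1 was at 86.5 and 82.8 CPM against 70.4 and 70.2 (-0.27 ± 0.06, adjusted p = 4.7e-04) and reversed to 0.16 (adjusted p = 0.0325) with chromosome medians subtracted. Atf6 was higher, at 141 and 147 CPM against 129.5 and 129.0 (0.16 ± 0.06, adjusted p = 0.0362), a call lost without any single one of the 6 libraries in 3D (0.15 to 0.18, adjusted p = 0.0536 to 0.179). Of the 2 degradation genes Herpud1, a scaffold of the degradation complex, was at 33.1 and 36.0 against 39.3 and 42.4 CPM (0.24 ± 0.09, adjusted p = 0.0294), a call lost without either control, either clone 1 or the second clone 2 library in 3D (0.17 to 0.29, adjusted p = 0.0548 to 0.281). Edem1, a lectin that passes glycoproteins to degradation, was at 0.02 ± 0.06 (adjusted p = 0.837).

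**Figure D1:**
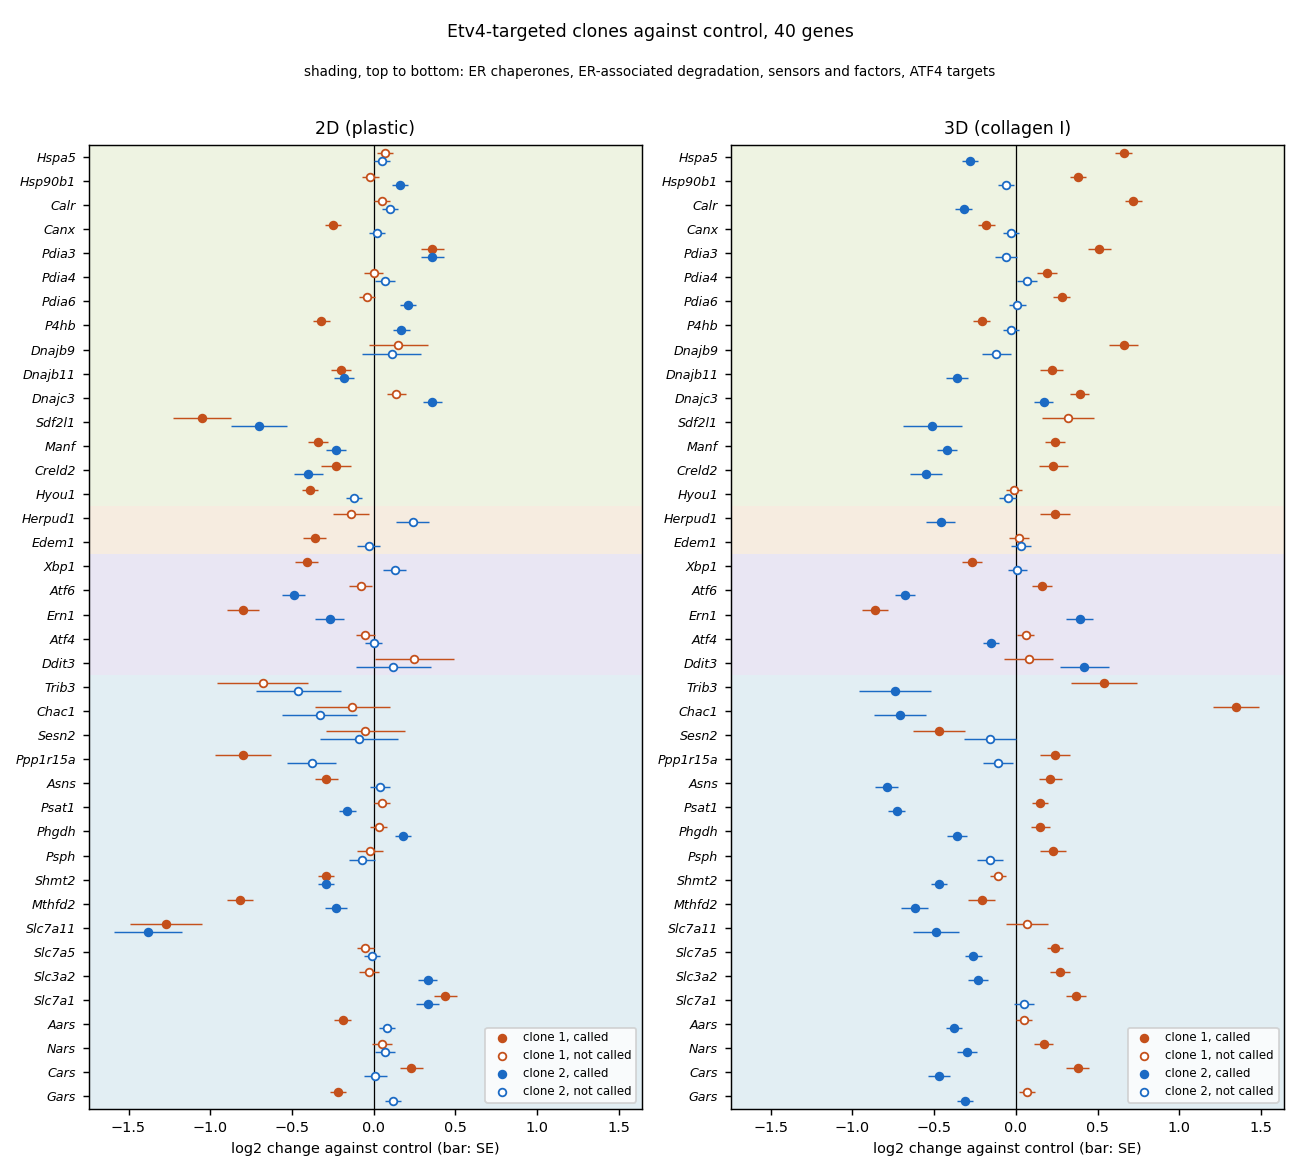
Log2 change of each of the 40 genes in clone 1 and clone 2 against control, in 2D (left) and in 3D (right), with points for the fitted change and bars for its SE. In 3D, 25 genes were higher and 6 lower in clone 1, and 3 were higher and 23 lower in clone 2.

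Clone 2 in 3D had lower RNA of 14 of 18 ATF4 targets than control. Of 15 chaperones 6 were lower too, and 8 did not pass the test. Of the 40 genes 3 were higher and 23 lower, where 29.2% of all genes were called, 11.8% higher and 17.4% lower. The median log2 change was -0.27 over the 40 genes, -0.37 over the ATF4 targets and -0.06 over the chaperones, against 0.00 over all genes. The 2 control libraries were shared with the comparison of clone 1, so the comparisons are not independent.

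All 18 ATF4 targets were tested in clone 2 in 3D, and 14 were lower and 0 higher. Asns (chr6:7675169-7693254), the asparagine synthetase, was at 51.2 and 53.9 CPM in control cells and at 30.5 in both clone 2 libraries, a log2 change of -0.79 ± 0.07 (adjusted p = 1.1e-09). Psat1, the transaminase of serine synthesis, was at 134 and 129 CPM against 79.5 and 79.5 (log2 change -0.73 ± 0.05, adjusted p = 1.5e-11). These libraries did not overlap, and both genes stood near 60% of control. Mthfd2, a mitochondrial one-carbon enzyme, was at 29.5 and 29.7 CPM against 18.04 and 20.4 (-0.62 ± 0.08, adjusted p = 1.4e-06), Shmt2, which feeds it, changed by -0.47 ± 0.05 (adjusted p = 4.6e-08), and Phgdh by -0.36 ± 0.06 (adjusted p = 1.7e-05). All 4 tRNA synthetases were lower, by log2 changes of -0.30 ± 0.06 for Nars to -0.47 ± 0.07 for Cars. The calls of these 5 enzymes and 4 synthetases held under every alternative.

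The stress effectors and transporters of clone 2 in 3D were lower in part. Chac1 was at 4.27 and 3.90 CPM, below the 6.31 and 7.02 of control (log2 change -0.71 ± 0.16, adjusted p = 0.00138, held under every alternative). Trib3 was at 2.45 and 2.44 CPM against 3.87 and 4.34 (-0.74 ± 0.22, adjusted p = 0.0125), a call lost without the second control library or either clone 2 library in 3D (adjusted p = 0.0926 to 0.131). Sesn2 and Ppp1r15a did not pass, at -0.16 ± 0.16 and -0.11 ± 0.09. Among the transporters Slc7a5 was lower by a log2 change of -0.26 ± 0.05 (adjusted p = 2.8e-04), Slc3a2, its heavy chain, by -0.23 ± 0.06 (adjusted p = 0.00289) and Slc7a11 by -0.49 ± 0.14 (adjusted p = 0.00746). The call of Slc3a2 was lost without the second control library or the second clone 2 library in 3D (-0.21 in each, adjusted p = 0.0598 and 0.0633). That of Slc7a11 was lost without the first control library or either clone 2 library in 3D (adjusted p = 0.0548 to 0.0979). Slc7a1 was at 203 and 200 CPM against 194 and 195 (0.05 ± 0.06, adjusted p = 0.597).

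Of the chaperones in clone 2 in 3D, 6 of 15 were lower, 1 was higher and 8 did not pass. Hspa5 was at 687 and 720 CPM in clone 2, below the 843 and 869 of control (log2 change -0.28 ± 0.05, adjusted p = 7.0e-05), and Calr at 330 and 354 against 422 and 435 (-0.32 ± 0.05, adjusted p = 5.2e-06). Creld2, a small stress-inducible ER protein, was at 10.7 and 11.8 CPM against 16.3 and 16.6 (-0.55 ± 0.10, adjusted p = 1.2e-04), Manf changed by -0.42 ± 0.06 (adjusted p = 1.9e-06) and Dnajb11, another J-domain partner of BiP, by -0.36 ± 0.07 (adjusted p = 1.4e-04). These 5 calls held under every alternative. Sdf2l1, which binds BiP and its J-domain partners, was at 4.93 and 3.94 CPM against 6.49 and 6.13, a log2 change of -0.51 ± 0.18 (adjusted p = 0.0299) that was lost without either control library, the second clone 1 or the second clone 2 library in 3D (-0.36 to -0.55, adjusted p = 0.0522 to 0.307), by DESeq2 (adjusted p = 0.0605) or with chromosome medians subtracted (adjusted p = 0.083). Dnajc3 was higher, at 86.5 and 84.2 CPM against 75.3 and 76.4 (0.17 ± 0.06, adjusted p = 0.0288), a call lost without any of the 4 libraries compared (0.15 to 0.19, adjusted p = 0.0958 to 0.202) or with chromosome medians subtracted (0.09, adjusted p = 0.302). Hsp90b1, Canx, Pdia3, Pdia4, Pdia6, P4hb, Dnajb9 and Hyou1 had log2 changes of -0.12 to 0.07 and did not pass.

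The regulators went in both directions in clone 2 in 3D. Atf6 was at 129.5 and 129.0 CPM in control cells and at 80.5 and 80.9 in clone 2 (log2 change -0.68 ± 0.06, adjusted p = 2.8e-09). It lies on chromosome 1, whose 780 genes had a median log2 change of -0.53 in this comparison, and with chromosome medians subtracted it was at -0.15 (adjusted p = 0.0924). Ern1 was higher, at 87.2 and 80.6 CPM against 64.9 and 62.9 (0.39 ± 0.08, adjusted p = 2.6e-04), and Herpud1 lower, at 25 and 25.3 against 33.1 and 36.0 (-0.46 ± 0.09, adjusted p = 3.8e-04), both under every alternative. Ddit3 was at 11.3 and 12.3 CPM against 9.23 and 8.42 (0.42 ± 0.15, adjusted p = 0.0365), a call lost without any of the 4 libraries compared or either clone 1 library in 3D (0.35 to 0.48, adjusted p = 0.0601 to 0.267), by DESeq2 (adjusted p = 0.0944) or with chromosome medians subtracted (0.29, adjusted p = 0.175). Atf4 was at 194 and 204 CPM against 220 and 222 (-0.15 ± 0.05, adjusted p = 0.0354), a call lost without any of these same 6 libraries (-0.11 to -0.19, adjusted p = 0.0513 to 0.311) and under 4 other settings (-0.06 to -0.14, adjusted p = 0.0524 to 0.49). Xbp1 differed by 0.01 ± 0.06.

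**Figure D2:**
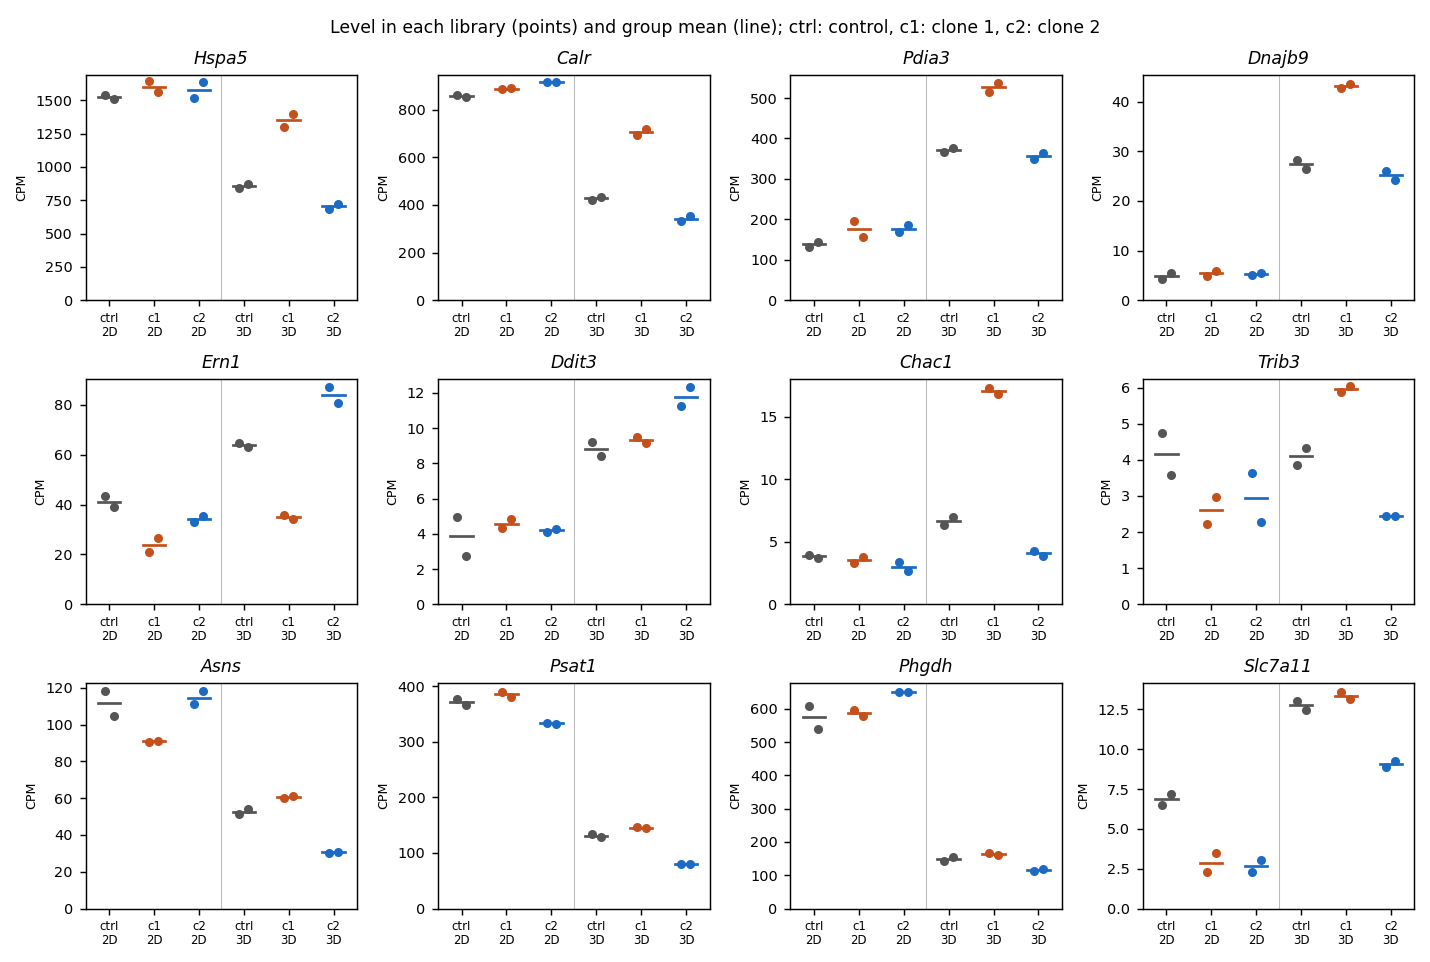
Level in CPM of 12 genes in each of the 12 libraries (points) with the mean of each group (line), 2D groups left and 3D groups right of the grey line. Hspa5, Calr, Pdia3, Dnajb9, Chac1 and Trib3 were highest in clone 1 among the 3D groups, and Asns and Psat1 were lowest in clone 2.

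The clones were also set directly against each other in 3D. The difference itself takes no control library, but scaling and the estimate of spread were shared by all 12 libraries. The clones differed in 35 of the 40 genes. Of these 4 were higher and 31 lower in clone 2 than in clone 1, where 54.8% of all genes were called, 26.4% higher and 28.4% lower. Among the ATF4 targets 17 of 18 were lower, and Sesn2, at 0.31 ± 0.16, did not pass (adjusted p = 0.105, and 0.0114 with the 3D libraries fitted alone). Chac1 had the largest log2 change at -2.06 ± 0.15 (adjusted p = 4.1e-12), followed by Trib3 at -1.29 ± 0.21 (adjusted p = 1.1e-05), Asns at -1.0 ± 0.07 (adjusted p = 1.6e-12) and Psat1 at -0.87 ± 0.05 (adjusted p = 5.3e-14). Among the chaperones 11 of 15 were lower, led by Calr at -1.05 ± 0.05 (adjusted p = 2.8e-16), Hspa5 at -0.94 ± 0.05 (adjusted p = 8.2e-15), Sdf2l1 at -0.82 ± 0.17 (adjusted p = 1.7e-04) and Dnajb9 and Creld2 at -0.78. Ern1 was higher in clone 2 by 1.25 ± 0.08 (adjusted p = 3.9e-13), and by 0.81 with chromosome medians subtracted. Canx, P4hb and Xbp1, the other 3 genes that were higher in clone 2, reversed under that setting, to -0.30, -0.27 and -0.17. The calls of Canx and P4hb were also lost without the first clone 1 library in 3D (0.12 and 0.17, adjusted p = 0.139 and 0.0538), that of Canx without the first clone 2 library in 3D (0.12, adjusted p = 0.14) and that of P4hb without the second (0.15, adjusted p = 0.0759).

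On plastic 7 of 15 chaperones and 7 of 18 ATF4 targets were lower in clone 1 than in control, and BiP did not pass the test. There 3 of 40 genes were higher and 17 lower, where 39.6% of all genes were called, 19.7% higher and 19.9% lower, with a median log2 change of -0.10. Of the abundant chaperones BiP and calreticulin were close to control, while Canx and P4hb, given below, were lower. Hspa5 was at 1539 and 1512 CPM in control cells and 1646 and 1560 in clone 1 (0.07 ± 0.05, adjusted p = 0.272), and Calr at 863 and 854 against 886 and 891 (0.05 ± 0.05, adjusted p = 0.439). Sdf2l1 was lower, at 13.5 and 16.7 CPM against 8.39 and 6.03 (-1.05 ± 0.18, adjusted p = 2.5e-05), Hyou1, a nucleotide exchange factor of BiP, by -0.39 ± 0.05 (adjusted p = 8.8e-07) and Manf by -0.34 ± 0.06 (adjusted p = 3.5e-05), while Pdia3 was higher by 0.36 ± 0.07 (adjusted p = 4.6e-04). Hyou1 and Manf were at -0.25 and -0.20 with chromosome medians subtracted. Pdia3 was at 196 and 156 CPM in clone 1 and at 133 and 143 in control, and without the first clone 1 library in 2D its log2 change was 0.18 (adjusted p = 0.0502). Canx, P4hb and Dnajb11 were lower by -0.25, -0.32 and -0.20, and all 3 changed sign, to 0.13, 0.06 and 0.15, with chromosome medians subtracted. Dnajb11 was also not called without the first clone 1 library in 2D (-0.17, adjusted p = 0.0955).

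Slc7a11 was the gene with the largest change in each clone on plastic. It was at 6.501 and 7.22 CPM in control, against 2.31 and 3.46 for clone 1 and 2.28 and 3.06 for clone 2, log2 changes of -1.27 ± 0.22 (adjusted p = 3.8e-05) and -1.38 ± 0.21 (adjusted p = 1.4e-05). Its promoter window, shown above, holds a pair of ATF4 elements on opposite strands. Mthfd2 was at 86.1 and 95.5 CPM in control cells and 51.6 and 50.9 in clone 1 (-0.82 ± 0.08, adjusted p = 3.9e-09), and Ppp1r15a at 9.02 and 8.36 against 4.82 and 5.14 (-0.80 ± 0.17, adjusted p = 3.7e-04). Asns was lower by -0.29 ± 0.07 (adjusted p = 8.6e-04) and Shmt2 by -0.29 ± 0.05 (adjusted p = 4.7e-05), both with non-overlapping libraries. Of the ATF4 targets 2 were higher. Slc7a1 was at 76.5 and 94.4 CPM in control and 120 and 112 in clone 1 (0.44 ± 0.07, adjusted p = 1.5e-05), the largest rise of the 40 genes. With the chromosome 5 median of 0.20 subtracted Slc7a1 was at 0.24, and Ddit3 was then at 0.28. Cars was higher by 0.23 ± 0.07 (adjusted p = 0.0116), a call lost without the second control or the first clone 1 library in 2D (0.10 and 0.18, adjusted p = 0.291 and 0.115) and with chromosome medians subtracted (0.10, adjusted p = 0.321). Ern1 was at 43.3 and 39.2 CPM in control cells and 20.9 and 26.7 in clone 1 (-0.80 ± 0.10, adjusted p = 3.7e-07), and at -0.42 with chromosome medians subtracted. Xbp1 was at 58.3 and 57.4 against 42.4 and 44.6 (-0.41 ± 0.07, adjusted p = 3.2e-05) and at -0.03 (adjusted p = 0.795) with chromosome medians subtracted. Atf4 was at 296 and 267 CPM against 276 and 267, and Ddit3 at 4.96 and 2.77 against 4.33 and 4.82, and neither passed (adjusted p = 0.492 and 0.451).

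In clone 2 on plastic 8 of the 40 genes were higher and 10 lower, where 33.7% of all genes were called, 18.8% higher and 14.9% lower, with a median log2 change of 0.01. Higher were Pdia3 and Dnajc3, each by 0.36 (SE 0.07 and 0.06, adjusted p = 5.2e-04 and 3.4e-05), and the transporters Slc3a2 and Slc7a1, each by 0.33 (SE 0.06 and 0.07, adjusted p = 1.6e-04 and 5.1e-04). Without the first control library in 2D the value of Slc7a1 was 0.19. Lower, next to Slc7a11, were Sdf2l1 at -0.70 ± 0.17 (adjusted p = 0.00156), Atf6 at -0.49 ± 0.07 (adjusted p = 2.2e-06), Creld2 at -0.40 ± 0.09 (adjusted p = 0.00106) and Shmt2 at -0.29 ± 0.05 (adjusted p = 6.7e-05). Chromosome 1 had a median of -0.29 in this comparison, and Atf6 was at -0.19 with chromosome medians subtracted, still called (adjusted p = 0.0302). Hspa5 was at 1520 and 1637 CPM against 1539 and 1512 (0.05 ± 0.05, adjusted p = 0.487), Asns at 111 and 118 against 118 and 105 (0.04 ± 0.06, adjusted p = 0.693), and Atf4 at 288 and 276 against 296 and 267 (0.00 ± 0.05, adjusted p = 1). None of the 4 stress effectors and none of the 4 tRNA synthetases passed. Clone 2 against clone 1 on plastic gave 16 higher and 3 lower genes, where 41.6% of all genes were called, and 9 higher and 6 lower with chromosome medians subtracted. The largest of these log2 changes were 0.59 ± 0.08 for Mthfd2 (adjusted p = 9.3e-07) and 0.55 ± 0.07 for Xbp1 (adjusted p = 4.4e-07), and with chromosome medians subtracted they were 0.36 and 0.25.

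The difference of each clone from control was itself compared between the formats, as the log2 change in 3D minus that in 2D. For clone 1 this difference was positive in 19 of the 40 genes and negative in 0 among those called, where 7.03% of all genes were called, 3.57% positive and 3.46% negative. It was called in 9 of 15 chaperones, in 9 of 18 ATF4 targets and in Edem1, and the median was 0.29 over the 40 genes and 0.00 over all genes. Without the first control library in 3D, 12 of the 40 genes were called. Chac1 had the largest value at 1.48 ± 0.27 (adjusted p = 6.0e-04), then Sdf2l1 at 1.37 ± 0.24 (adjusted p = 4.2e-04), Slc7a11 at 1.34 ± 0.26 (adjusted p = 0.00117), Trib3 at 1.23 ± 0.34 (adjusted p = 0.0268) and Ppp1r15a at 1.04 ± 0.19 (adjusted p = 6.5e-04). The call of Trib3 was lost without the first control or the first clone 1 library in 2D, either control or either clone 1 library in 3D, or the second clone 2 library in 3D (1.01 to 1.30, adjusted p = 0.051 to 0.12). Smaller values included Calr at 0.67 ± 0.07 (adjusted p = 8.6e-08), Mthfd2 at 0.61 ± 0.11 (adjusted p = 7.8e-04), Hspa5 at 0.59 ± 0.07 (adjusted p = 2.1e-06) and Asns at 0.50 ± 0.09 (adjusted p = 7.7e-04). Sdf2l1, Ppp1r15a, Slc7a11 and Asns were lower than control on plastic and had log2 changes of 0.07 to 0.32 in 3D. None of the 5 sensors and factors passed.

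For clone 2 the same difference was positive in 2 of the 40 genes and negative in 16, where 22.2% of all genes were called, 7.38% positive and 14.8% negative. It was negative in 11 of 18 ATF4 targets and in 4 of 15 chaperones, and the median was -0.20 over the 40 genes and -0.06 over all genes. Asns had the largest negative value at -0.83 ± 0.09 (adjusted p = 4.9e-07), then Herpud1 at -0.70 ± 0.14 (adjusted p = 5.1e-04), Psat1 and Slc3a2 at -0.57 (SE 0.07 and 0.09, adjusted p = 1.4e-06 and 2.7e-05) and Phgdh at -0.54 ± 0.08 (adjusted p = 1.8e-05). All 4 tRNA synthetases were negative, from -0.37 ± 0.09 for Nars to -0.48 ± 0.10 for Cars. Among the chaperones Calr and Pdia3 were at -0.42 (SE 0.07 and 0.10, adjusted p = 5.0e-05 and 0.00389), and Hspa5 was at -0.33 ± 0.07 (adjusted p = 0.00114). The positive genes were Slc7a11 at 0.89 ± 0.26 (adjusted p = 0.0127) and Ern1 at 0.66 ± 0.12 (adjusted p = 2.6e-04). The call of Slc7a11 was lost without the first clone 2 library in 2D (0.67, adjusted p = 0.112) or the second control library in 3D (0.85, adjusted p = 0.0509).

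The step from 2D to 3D changed nearly all of the 40 genes. In control cells 11 were higher and 26 lower in 3D than in 2D, where 77.1% of all genes were called, 41.6% higher and 35.5% lower. Their median log2 change was -0.45 and that of all genes 0.10. Lower were 13 of 15 chaperones and all 6 synthetic enzymes, and higher were 3 of the 4 stress effectors and Dnajb9.

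Of the chaperones 13 of 15 were lower in 3D in control cells, with a median log2 change of -0.83. Hspa5 went from 1539 and 1512 CPM to 843 and 869 (-0.83 ± 0.05, adjusted p = 1.4e-14) and Calr from 863 and 854 to 422 and 435 (-1.0 ± 0.05, adjusted p = 7.9e-17). Dnajb11 had the largest fall, from 112 and 113 CPM to 36.2 and 37.3 (-1.61 ± 0.06, adjusted p = 1.8e-18), followed by Creld2 at -1.45 ± 0.09 and Sdf2l1 at -1.26 ± 0.16. The 2 exceptions were large. Dnajb9 rose from 4.33 and 5.40 CPM to 28.3 and 26.4 (2.49 ± 0.13, adjusted p = 1.1e-15), and Pdia3 from 133 and 143 to 366 and 375 (1.43 ± 0.07, adjusted p = 2.9e-15).

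The ATF4 targets did not move as a block between the formats. All 6 synthetic enzymes were lower in 3D in control cells, with a median log2 change of -1.29: Phgdh went from 609 and 541 CPM to 143 and 154 (-1.95 ± 0.06, adjusted p = 2.7e-21), Mthfd2 from 86.1 and 95.5 to 29.5 and 29.7 (-1.62 ± 0.08, adjusted p = 1.1e-16), Psat1 from 376 and 367 to 134 and 129 (-1.50 ± 0.05, adjusted p = 3.3e-20) and Asns from 118 and 105 to 51.2 and 53.9 (-1.08 ± 0.07, adjusted p = 1.8e-14). Of the synthetases Gars, Nars and Aars were lower, by -0.95, -0.87 and -0.58, and Cars was at -0.03 ± 0.07. The stress effectors went the other way: Ppp1r15a rose from 9.02 and 8.36 CPM to 42.1 and 43.5 (2.30 ± 0.11, adjusted p = 2.1e-16), Sesn2 by 1.22 ± 0.19 (adjusted p = 2.7e-06) and Chac1 by 0.79 ± 0.19 (adjusted p = 4.1e-04), while Trib3 was at -0.02 ± 0.23. Among the transporters Slc7a1 rose by 1.18 ± 0.07, Slc7a11 by 0.89 ± 0.16 and Slc3a2 by 0.27 ± 0.06. Slc7a5 was at -0.13 ± 0.05 (adjusted p = 0.0336), a call lost under 4 other settings and without the first control library in 2D, either control library, the first clone 1 library or either clone 2 library in 3D (-0.07 to -0.13, adjusted p = 0.0603 to 0.364).

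Of the regulators Ddit3 rose in 3D in control cells from 4.96 and 2.77 CPM to 9.23 and 8.42 (1.20 ± 0.20, adjusted p = 4.4e-06), Ern1 by 0.63 ± 0.09 (adjusted p = 1.8e-07) and Xbp1 by 0.55 ± 0.06 (adjusted p = 9.9e-09). Atf4 fell from 296 and 267 to 220 and 222 CPM (-0.35 ± 0.05, adjusted p = 1.8e-06) and Atf6 by -0.22 ± 0.06 (adjusted p = 0.00294). Edem1 fell by -0.39 ± 0.07 (adjusted p = 6.5e-06), and Herpud1, at 0.05 ± 0.10, did not pass.

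In clone 1 the same step from 2D to 3D gave 15 higher and 20 lower genes, where 75% of all genes were called, 39.7% higher and 35.3% lower, and in clone 2 it gave 9 higher and 29 lower, where 79.4% were called, 42.4% higher and 37% lower. The chaperone median was -0.31 in clone 1 and -0.83 in clone 2. On the log2 scale Hspa5 fell by 0.25 ± 0.05 for clone 1 and by 1.17 ± 0.05 for clone 2, and Calr fell by 0.33 and 1.42, each with SE 0.05. Hsp90b1 rose in clone 1 by 0.21 ± 0.05 (adjusted p = 1.8e-04) and fell in clone 2 by 0.41 ± 0.05 (adjusted p = 4.6e-09). The synthetic enzymes had medians of -0.87 in clone 1 and -1.96 in clone 2, and Asns fell by 0.58 ± 0.07 and 1.91 ± 0.07. Chac1 rose in clone 1 by 2.28 ± 0.18 (adjusted p = 3.4e-12) and was at 0.41 ± 0.20 in clone 2 (adjusted p = 0.0633). Slc7a11 rose by 2.23 ± 0.19 in clone 1 and 1.79 ± 0.19 in clone 2, from the lower 2D levels given above. The 3 populations shared the rise of Dnajb9, Pdia3, Ppp1r15a, Sesn2, Ddit3, Ern1, Xbp1, Slc7a11 and Slc7a1 and the fall of all 6 synthetic enzymes, of Atf4 and of 10 chaperones, and all of these but Canx in clone 1 held under every alternative. Canx in clone 1 was at -0.18 ± 0.05, and at -0.13 (adjusted p = 0.0775) without the first clone 1 library in 3D.

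**Figure D3:**
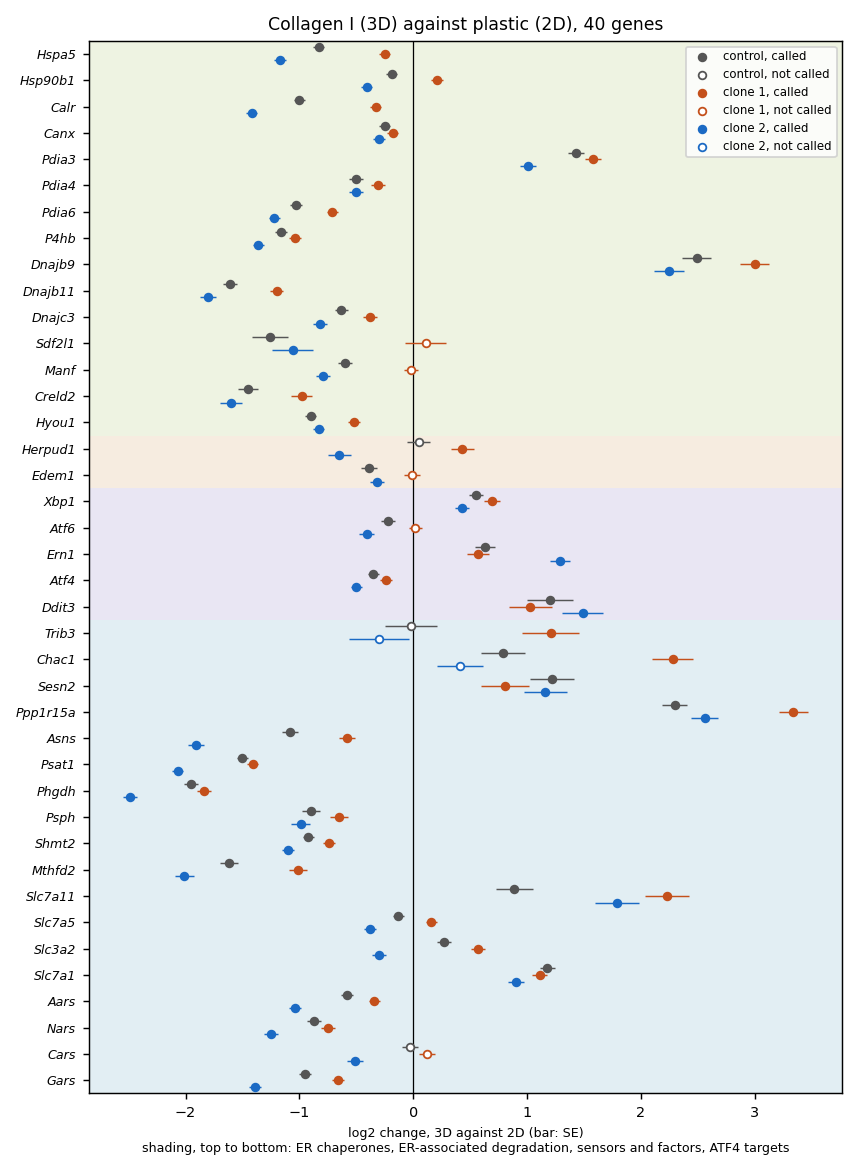
Log2 change of each of the 40 genes from 2D to 3D in control, clone 1 and clone 2, with points for the fitted change and bars for its SE. Dnajb9, Pdia3 and Ppp1r15a lie far to the right in all 3 populations, and Phgdh, Psat1 and Mthfd2 far to the left.

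Chaperones and ATF4 targets were compared through the difference of their median log2 changes, ATF4 targets minus chaperones, which is a description with no test because genes are not replicates. In 3D the difference was -0.09 for clone 1 against control and -0.31 for clone 2 against control, and on plastic it was -0.05 and -0.11. The medians of ATF4 targets and chaperones were 0.19 and 0.28 in clone 1 in 3D, and -0.37 and -0.06 in clone 2 in 3D. For clone 2 against clone 1 in 3D the medians were -0.49 and -0.56 and their difference was 0.08. From 2D to 3D the difference was 0.48 for control, 0.20 for clone 1 and 0.08 for clone 2, and it combined enzymes that fell with effectors that rose. With Ddit3, itself an ATF4 target, counted among the targets, these 3 values were 0.71, 0.43 and 0.32. Single libraries moved the small differences: without the first clone 1 library in 3D that of clone 1 in 3D was -0.17, and with chromosome medians subtracted -0.23. Without the second control library in 2D that of clone 2 on plastic was -0.19, and without the first clone 2 library in 2D that of clone 2 from 2D to 3D was 0.16.

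**Figure D4:**
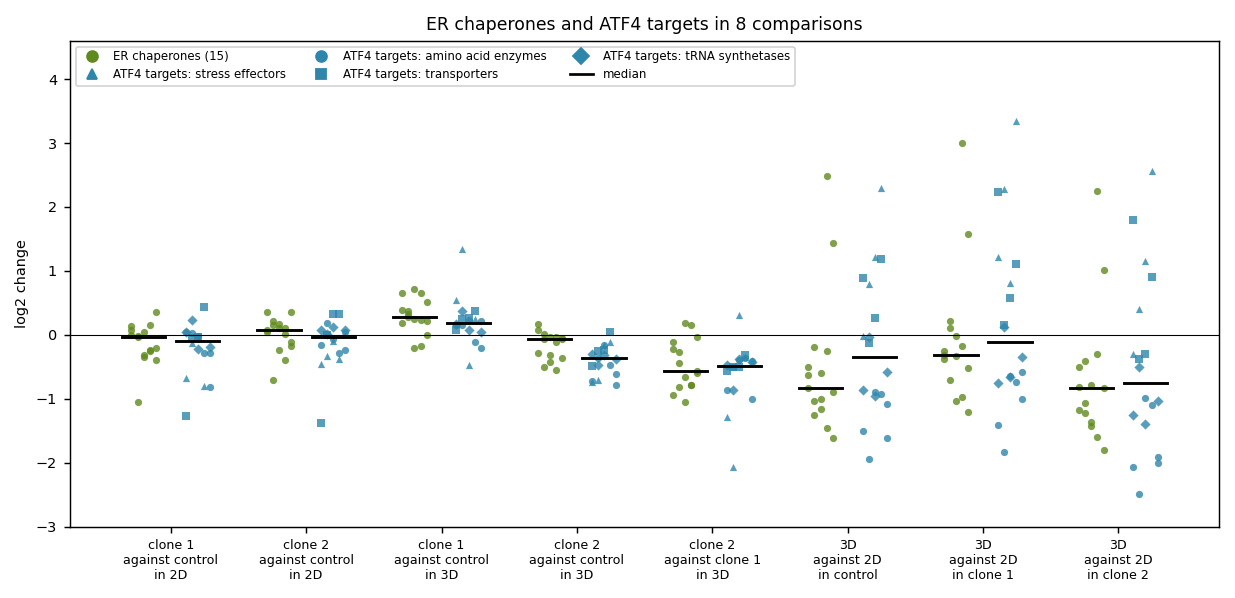
Log2 change of the 15 ER chaperones (green) and 18 ATF4 targets (blue, with a marker shape for each subgroup) in 8 comparisons, with a black line at each median. The medians of chaperones and ATF4 targets are 0.28 and 0.19 for clone 1 in 3D, and -0.06 and -0.37 for clone 2 in 3D.

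The members were also split by the promoter elements named above, as a description. In clone 2 in 3D the 6 ATF4 targets with the ATF4 element in their window were all lower, with a median log2 change of -0.60 and a range of -0.79 to -0.31, where 17.4% of all genes were lower. Of the 9 targets whose window lacked it, 5 were lower, with a median of -0.23. In clone 1 in 3D the medians of the same groups were 0.14 and 0.15. Of the 7 chaperones with ERSE-I, 6 were higher and 1 lower in clone 1 in 3D, with a median of 0.38, where 22% of all genes were higher and 23% lower, and of the 6 without it 4 were higher and 1 lower, with a median of 0.27. From 2D to 3D in control both chaperone groups had a median of -0.83, and both genes with a large rise, Dnajb9 and Pdia3, were among those without ERSE-I.

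Other genes of the same pathways, listed by function but with earlier results of these data known, gave a context for the members. Of 28 further ATF4-linked genes tested, 13 were higher and 6 lower in clone 1 in 3D, with a median log2 change of 0.14, beside 22% and 23% of all genes. Atf5, a factor related to ATF4, was higher by 1.42 ± 0.13 (adjusted p = 1.7e-09), and Ddit4, an mTORC1 inhibitor, was lower by -1.28 ± 0.10 (adjusted p = 1.1e-10). In clone 2 in 3D 1 of the 28 was higher and 16 were lower, with a median of -0.28, beside 11.8% and 17.4% of all genes, among them Eprs at -0.74 ± 0.05, Atf3 at -0.69 ± 0.06 and Tars at -0.66 ± 0.06. Of 8 further cytosolic tRNA synthetases 6 were lower and 0 higher in clone 2 in 3D, against 3 lower and 2 higher in clone 1. Of the 20 further ER folding genes 4 were higher and 8 lower in clone 1 in 3D, with a median of -0.10. The share higher was close to the 22% of all genes, while the share lower was above the 23% of all genes. The leading folding genes were Ero1lb, an ER oxidase, at 0.97 ± 0.10 and Fkbp11, a prolyl isomerase, at -1.21 ± 0.14. Of 10 further degradation genes 5 were higher and 3 lower in clone 1 in 3D, led by Sel1l at 0.54 ± 0.06. Of 10 genes of the sensors and the eIF2 arm 6 were higher and 1 lower in clone 1 in 3D, led by Atf6b at 0.76 ± 0.07, and 1 was higher and 3 lower in clone 2, led by Ppp1r15b at -0.90 ± 0.06. From 2D to 3D in control, 7 of the 8 synthetases and 11 of the 20 folding genes were lower, where 35.5% of all genes were lower, led by Ppib at -2.63 ± 0.07, and Atf3, a stress-induced factor, was higher by 3.66 ± 0.08.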

How the data were processed

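RNA of 12 libraries was read as deposited whole-number counts per gene, 1 table for the 2D and 1 for the 3D libraries. Per the labels' protocols libraries were made with a stranded poly(A) kit. Per the submitters' processing notes FastQC 0.11.9, STAR 2.7.9a, featureCounts and build mm10 were used, while the annotation and the strand setting are not given in the sources used here. Exon length shared with another gene was 14.3% for Aars, 6.13% for Ddit3 and 5.38% for Hsp90b1 on the same strand, and 10.4% for Psph, 10.3% for Hsp90b1, 8.85% for Manf, 4.73% for Ddit3 and 3.21% for Cars on the opposite strand, and these counts are uncertain to that extent.

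The tables were joined, genes were filtered by edgeR's filterByExpr, libraries were scaled by TMM, and 6 group means were fitted with edgeR 4.0.16 (R 4.3.3), quasi-likelihood test. Adjusted p-values are Benjamini-Hochberg over 13763 genes, and 0.05 was the threshold throughout. With 2 libraries a group the fit had 6 residual degrees of freedom. Changes are log2 ± SE, and interactions are the change in 3D minus that in 2D. Members and lists were chosen with earlier results of these data known, and the rule named up to 4 called members with the largest change in each role, the 2 largest of all, and always Atf4, Ddit3, Xbp1, Hspa5 and Asns. Further members, named to complete a role, were chosen after their values were seen. Alternatives were DESeq2 1.42.0 (size factors and Wald test), a looser filter, a replicate block, each format or cell population fitted alone, leaving out Gm26917 and Gm42418, subtracting each chromosome's median, and leaving out each library in turn. Gene coordinates are mm10, from GENCODE. In that annotation the symbol Ddit3 has 2 gene entries, and its row of counts cannot be tied to one of them.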

Additional observations from a re-analysis of the deposited data

Results flagged for a closer look

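For these genes the difference between a clone and control in 3D differed from that in 2D, by a test of the difference itself in edgeR's quasi-likelihood fit (the log2 change in 3D minus that in 2D, adjusted p of 0.05 or less).

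In clone 1 all 19 were positive, where 3.57% of all genes were called positive and 3.46% negative. The chaperones were Sdf2l1 at 1.37, Calr at 0.67, Hspa5 at 0.59, Manf at 0.58, Creld2 at 0.47, Dnajb11 at 0.42, Hsp90b1 at 0.40, Hyou1 at 0.38 and Pdia6 at 0.32, and Edem1 was at 0.38. The ATF4 targets were Chac1 at 1.48, Slc7a11 at 1.34, Trib3 at 1.23, Ppp1r15a at 1.04, Mthfd2 at 0.61, Asns at 0.50, Slc3a2 at 0.30, and Slc7a5 and Gars at 0.29. Leaving out a single library ended the call of 7 of them: Pdia6 (first control library in 3D, adjusted p = 0.0835), Creld2, Edem1, Trib3, Slc7a5, Slc3a2 and Gars (adjusted p up to 0.146, 0.118, 0.12, 0.137, 0.171 and 0.12). The first control library in 3D was among these libraries for all 7, and with it left out 12 of the 40 genes were called.

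In clone 2 the difference was negative in 16 genes and positive in 2, where 14.8% of all genes were called negative and 7.38% positive. The 16 were the chaperones Calr and Pdia3 at -0.42, Hspa5 at -0.33 and Hsp90b1 at -0.22, the degradation gene Herpud1 at -0.70, the enzymes Asns at -0.83, Psat1 at -0.57, Phgdh at -0.54 and Mthfd2 at -0.39, the transporters Slc3a2 at -0.57, Slc7a1 at -0.29 and Slc7a5 at -0.25, and the synthetases Cars at -0.48, Aars at -0.46, Gars at -0.44 and Nars at -0.37. It was positive in Slc7a11 at 0.89 and Ern1 at 0.66. Leaving out a single library ended the call of Hsp90b1, Mthfd2, Slc7a11, Slc7a5 and Slc7a1 (adjusted p up to 0.104, 0.127, 0.112, 0.0856 and 0.245). The first clone 2 library in 3D was among these libraries for all but Slc7a11, and Slc7a1 was at -0.14 without the first control library in 2D.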

How the results depend on the processing

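The number of members called stayed within 1.5 times of the reported one under every setting but leaving out libraries, where it ranged from 17 to 32 for clone 1 against control in 3D and from 12 to 21 for the clone 1 interaction. Of the calls, 11 of 20 and 10 of 18 for clones 1 and 2 in 2D, 11 of 31 and 18 of 26 in 3D, and 36 of 37, 33 of 35 and 38 of 38 from 2D to 3D (control, clone 1, clone 2) were kept under all alternatives. Depth limits chiefly the scarce genes Trib3, Chac1, Sesn2, Slc7a11 and Ddit3 in 2D.

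With each chromosome's median subtracted some log2 changes took the opposite sign. For clone 1 against control they were Canx at 0.13, P4hb at 0.06 and Dnajb11 at 0.15 in 2D. In 3D they were Canx at 0.25, P4hb at 0.23 and Xbp1 at 0.16. For clone 2 against clone 1 they were Hsp90b1 at -0.01, Canx at -0.02, Pdia4 at -0.16, Dnajb11 at -0.23, Phgdh at -0.06 and Shmt2 at -0.19 in 2D. In 3D they were Canx at -0.30, P4hb at -0.27, Edem1 at -0.23 and Xbp1 at -0.17. Values such as -0.01 and -0.02 are a change lost rather than one turned the other way. The median of ATF4 targets minus that of chaperones then became -0.23 for clone 1 in 3D and 0.04 for clone 2 against clone 1 in 2D.

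That difference of medians became 0.71, 0.43 and 0.32 from 2D to 3D in control, clone 1 and clone 2 with Ddit3 among the targets. Over left-out libraries it ranged from -0.19 to -0.08 for clone 2 in 2D, from -0.17 to -0.07 for clone 1 in 3D and from 0.05 to 0.16 for clone 2 from 2D to 3D.

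Deviations of replicates with the same number were hardly correlated between groups of a format (correlations from -0.045 to 0.022). This cannot show whether equal numbers shared a culture or a batch, which the labels do not say. With a replicate block 19 members were called for clone 1 and 18 for clone 2 in 2D, 30 and 26 in 3D, 37, 34 and 38 from 2D to 3D, 19 and 35 between the clones, and 19 and 18 in the interactions. The looser filter raised the median of all genes from 2D to 3D by 0.229 in control, 0.225 in clone 1 and 0.282 in clone 2.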
